A study of Heterocephalus glaber and Cavia porcellus and Spalacopus cyanus with 7 samples.

Results

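F-box proteins were described here as a gene family in rodent oocytes. The family comprised every gene whose symbol began with FBXO, FBXL or FBXW followed by a number. Symbols alone decided membership, and 1 symbol of that form was set aside. Of the 26623 gene entries of naked mole-rat (Heterocephalus glaber), 60 belonged to the family, and 58 of the 25603 entries of guinea pig did. In all 61 genes were covered, of which 57 had an entry in both species, 3 (Fbxl17, Fbxl22 and Fbxo6) in naked mole-rat alone and 1 (Fbxw12) in guinea pig alone. The material was oocytes at or near full size, freed of their cumulus cells. The naked mole-rat group consisted of 5 females aged 1 to 8 years with 1 library each, and the guinea pig library pooled the oocytes of 3 females aged 6 to 9 months. A coruro library, from a female aged 2 years, was counted by the authors on 3 Dnmt3 sequences and held no F-box gene.

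An F-box protein is the part of an SCF ubiquitin ligase that chooses the protein to be marked for degradation. The F-box itself binds the adaptor SKP1, which sits on the scaffold CUL1, and the RING protein RBX1 brings in the ubiquitin-loaded enzyme. The 3 subfamilies are named by what else the protein carries. FBXW proteins have WD40 repeats, FBXL proteins have leucine-rich repeats, and FBXO proteins have other domains or none that is recognised. In oocytes, ubiquitin ligases of this kind are known for timing meiotic divisions and for clearing maternal proteins.

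Levels are given in counts per 1000000 counts assigned to genes (CPM). Naked mole-rat libraries held 13512223 to 29561451 counts and the guinea pig library held 24515642, so that 3 counts, the limit that a count of 0 allows, corresponded to 0.101 to 0.222 CPM and to 0.122 CPM. Such limits and the intervals given for guinea pig are at 95% and cover counting error only. CPM is not divided by transcript length, which the sources used here do not give. The order of genes by CPM therefore holds length as well as level, and only the same gene was compared between libraries. Oocyte markers marked all libraries, with 13 of 15 listed genes at 10 CPM or more in every naked mole-rat library and 14 of 14 in guinea pig, while Sohlh1 had at most 1.39 CPM in naked mole-rat. Replicate 1 stood apart. Its 18 listed granulosa cell markers summed to 6754 CPM, against 1024 to 2089 CPM in the other naked mole-rat libraries and 817 CPM in guinea pig, and 15 of the 18 were highest there. The 9 stroma markers summed there to 231 CPM, against at most 47.8 CPM elsewhere in naked mole-rat, and the 9 immune markers to 115 CPM against at most 27.1 CPM. Cd74 alone gave 98.6 CPM of this immune sum. Of the 9 immune markers 7 were highest in replicate 1, but Ptprc was highest in replicate 3 and Tyrobp in replicate 2. C1qb and Laptm5 had 0 counts in replicates 2 to 5, and only 0.814 and 0.592 CPM in replicate 1. The sum of the 15 oocyte markers was 4636 CPM there against 8759 to 10640.5 CPM elsewhere, with 12 of the 15 lowest and 1, Zar1, highest in replicate 1. In guinea pig the stroma markers summed to 389.8 CPM, above every naked mole-rat library. The counts of replicate 1 were deposited in a table of their own, and replicates 2 to 5 share another. In libraries of whole samples, fewer cells of a type and less RNA per cell cannot be told apart.

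F-box genes were measurable as a family in every oocyte library. Of the 60 naked mole-rat genes, 47 (78.3%) reached 1 CPM in all 5 libraries, where 62% of all entries with a gene symbol did. At 100 CPM or more in every library there were 9 (15%), against 8.83% of all such entries. These 9 were Fbxo32, Fbxo42, Fbxo21, Fbxo18, Fbxo3, Fbxw8, Fbxl14, Fbxw11 and Fbxo45. Leaving out replicate 5 raised their number to 11. The median of the family's mean levels was 30.0 CPM, and the median over all entries with a symbol was 14.6 CPM.

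The summed CPM of the family lay in a narrow range. Replicates 1 to 5 had sums of 3725, 4433, 4157, 3967 and 3841 CPM, with a mean of 4024 ± 279 CPM (SD, n = 5). The guinea pig sum of 4492 CPM lay just above the highest of these. FBXO genes made up most of it, with 35 genes and 2837 ± 327 CPM (SD, n = 5). The 18 FBXL genes summed to 679 ± 78.7 CPM and the 7 FBXW genes to 508 ± 57.9 CPM (SD, n = 5). As a share of the family's CPM, FBXL genes took 21.5% in replicate 1 and 14.3 to 16.9% in the other 4 libraries. FBXO genes took 63.4% in replicate 1 and 69.6 to 74.0% in the other 4. In guinea pig 56 of 58 genes reached 1 CPM, where 73.1% of entries with a symbol did. There FBXO took 67.6%, FBXL 22.3% and FBXW 10.1% of the family's CPM. Few genes carried the sum: the 5 highest held 40.0% of it in naked mole-rat and 33.6% in guinea pig, and 2 genes, Fbxo42 and Fbxo18, were among the 5 highest of both species.

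**Figure D1:**
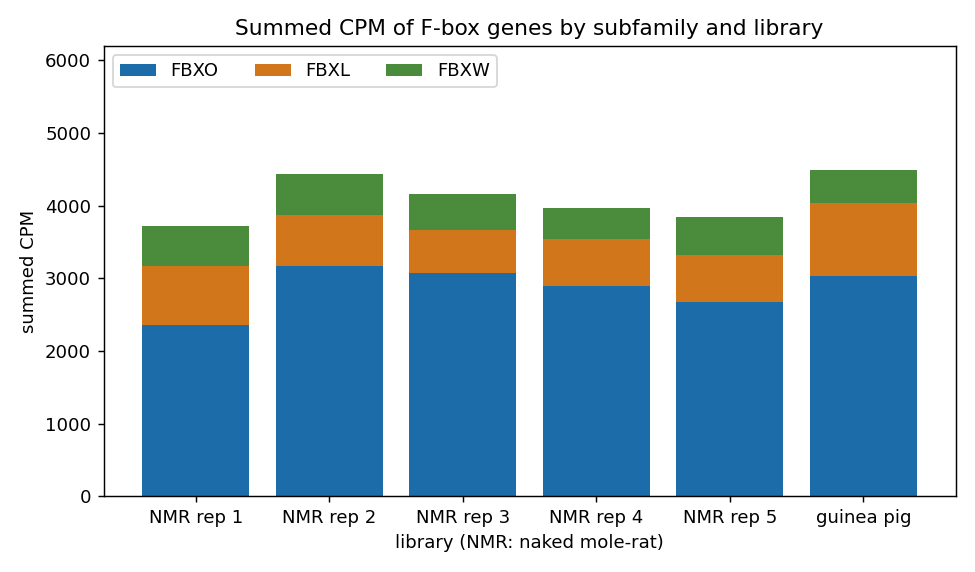
Summed CPM of F-box genes (vertical axis) in the 5 naked mole-rat libraries and the guinea pig library, each bar divided into the FBXO, FBXL and FBXW subfamilies. The total lies between 3725 and 4492 CPM in all 6 libraries, and the FBXL part is largest among naked mole-rat libraries for replicate 1, at 802 CPM against 593 to 701 CPM.

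Fbxo32, also known as atrogin-1 or MAFbx and best known for muscle wasting, ranked first by mean CPM in the naked mole-rat libraries. It had 265, 565, 538, 483 and 535 CPM in replicates 1 to 5, a mean of 477 ± 122 CPM (SD, n = 5), and 1.00% of all entries had a higher mean. Replicate 1 was the only low library, and the other 4 lay close together. Fbxo42, a kelch-repeat protein that recognises p53 in human cells, had 193, 408, 406, 319 and 347 CPM, again lowest in replicate 1. Fbxo21, which targets the transcriptional inhibitor EID1 in human cells, was instead highest in replicate 1, with 421, 269.8, 234, 283 and 365 CPM. Fbxo18, which is unusual in the family because it is also a DNA helicase, had 220, 344, 262, 293 and 239 CPM. These 4 genes and Fbxo3, which promotes the breakdown of another F-box protein, FBXL2, were the 5 highest by mean. Fbxo3 had 153, 232, 294, 174 and 198 CPM, lowest in replicate 1 and highest in replicate 3.

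The next 5 genes by mean CPM came from all 3 subfamilies. Fbxw8, which works with the scaffold CUL7, had 210, 217, 197, 144 and 273 CPM in replicates 1 to 5. Fbxl14, which targets the SNAI1 transcription factor in human cells, had 125, 231, 181, 211 and 182 CPM and was the only FBXL gene at 100 CPM in every library. Fbxw11, one form of the beta-TrCP protein that recognises phosphorylated cell cycle proteins, had 182, 216, 182, 163 and 118 CPM. In these 3 genes the lowest library differed from gene to gene. Fbxo45, which acts with the ligase MYCBP2 in neurons, was highest in replicate 1, with 215, 101, 159.7, 138 and 103 CPM in replicates 1 to 5.

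Fbxo5 encodes EMI1, an inhibitor of the anaphase-promoting complex whose own breakdown, by beta-TrCP, lets cells go through division. It had 71.9, 199.7, 239.8, 186 and 117 CPM in replicates 1 to 5, so replicates 1 and 5 were low and the other 3 were high. Fbxo30 showed the same split, with 79.8 and 58.4 CPM in replicates 1 and 5 and 149 to 167 CPM in the other 3. Replicates 1 and 5 were the libraries with the highest summed granulosa markers, at 6754 and 2089 CPM, and the part of this in the split was not tested. Of the 35 F-box genes at 10 CPM or more in every library, 10 had replicates 1 and 5 as their lowest pair, a share of 28.6%, and 26.4% of all entries with a symbol did so too. For 7 of the 35 (20%) they were the highest pair, against 23% of all entries, so neither share stood far from the background. This pattern was counted after the values were seen.

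**Figure D2:**
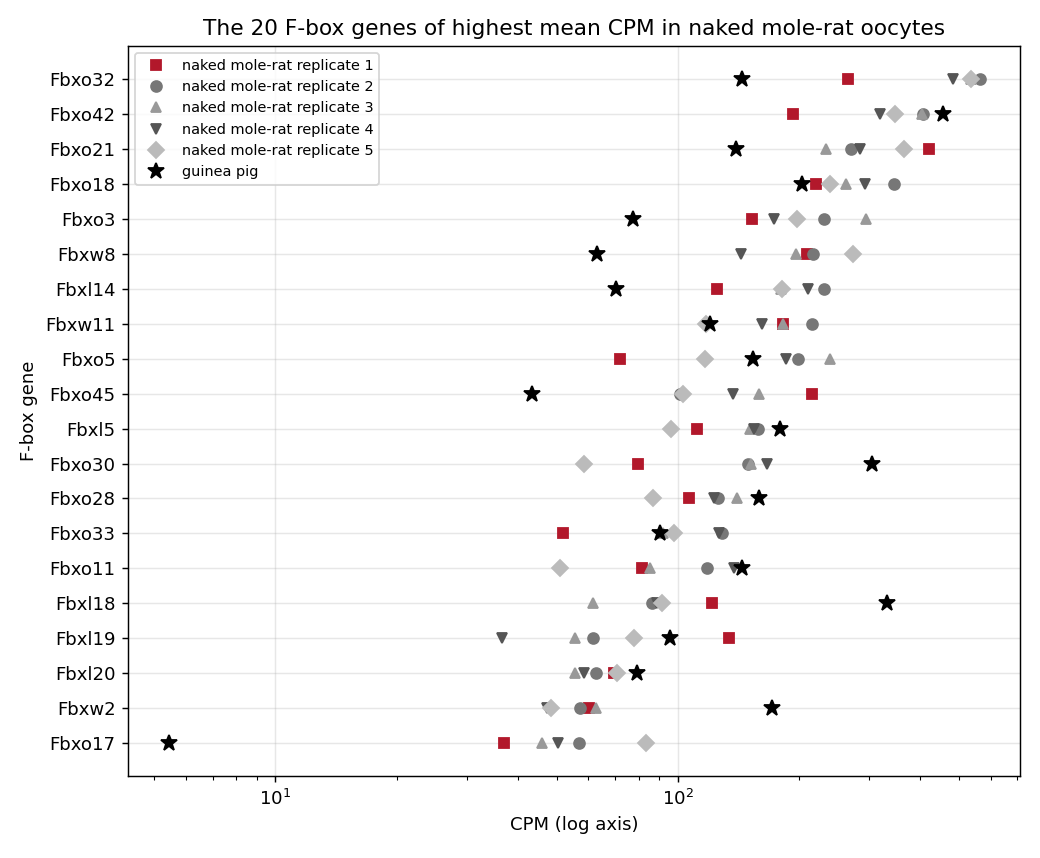
CPM on a log axis for the 20 F-box genes that rank highest by mean CPM, with 1 symbol per library (squares in red for replicate 1, grey for replicates 2 to 5, stars for guinea pig). Replicate 1 is the lowest naked mole-rat library for Fbxo32, Fbxo42 and Fbxo5 and the highest for Fbxo21 and Fbxo45, and the star lies above all 5 libraries for Fbxo30, Fbxl18 and Fbxw2.

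Several F-box genes with well-known substrates were moderate in CPM. Fbxl5, the iron-sensing receptor for IRP2, had 112, 158, 151, 155 and 96.3 CPM in replicates 1 to 5. Fbxo11, which targets BCL6, had 81.8, 118, 85.4, 138 and 50.9 CPM. Both were lowest in replicate 5. Fbxw7, the receptor for cyclin E and MYC, had 26.9, 39.2, 21.7, 42.0 and 29.4 CPM in replicates 1 to 5. Fbxo15, known as a marker of mouse embryonic stem cells, had 37.0 ± 9.18 CPM in naked mole-rat (SD, n = 5) and 35.6 CPM in guinea pig.

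At the low end, 4 genes (6.67%) stayed under 1 CPM in every naked mole-rat library, where 17.4% of entries with a symbol did, namely Fbxl21, Fbxl22, Fbxo27 and Fbxo39. Fbxo39 had 0 counts in all 5 libraries and in guinea pig, which allows up to 0.101 CPM in the deepest naked mole-rat library. Counts of 0 in at least 1 naked mole-rat library occurred for 9 of the 60 genes (15%), against 31.4% of entries with a symbol, among them Fbxo2, a receptor for glycoproteins known from neurons, which had 1.11, 0, 3.55, 0 and 0.372 CPM. Fbxo2 also had 0 counts in guinea pig. Fbxo47, needed for meiosis in mouse spermatocytes, had 1.92, 7.48, 0, 0.927 and 3.11 CPM. For such genes the libraries differed by more than their means.

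Among the 35 genes at 10 CPM or more in every library, the coefficient of variation over the 5 females ran from 10.5 to 73.6%, with a median of 25.6%, and it was 30.1% for the 6851 entries with a symbol at that level. The steadiest was Fbxl20 with 69.6, 62.6, 55.7, 58.5 and 70.8 CPM, followed by Fbxo22 and Fbxw2. The least steady was Fbxl6, with 67.3, 22.5, 10.3, 18.6 and 32.3 CPM. The highest library exceeded the lowest by a median of 1.98 times, and by 2.17 times over all such entries.

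Replicate 1 was compared with the 4 other naked mole-rat libraries, as the library that stood apart in its markers. A gene was called where replicate 1 exceeded the highest of the others by more than 2 times, or fell short of their lowest by as much, among genes with at least 100 counts in replicate 1 or in each of the others, and with a single library on one side there was no test. Of 46 F-box genes that met the minimum, 6 (13.0%) were called higher in replicate 1. Of the 10464 entries with a symbol that met it, 23% were. Only 1 F-box gene (2.17%) was called lower, against 3% of these entries. TMM scaling moved the median log2 difference of these entries from 0.27 to -0.07. The calls were then 3 higher and 4 lower, against 17.9 and 7.52% of the entries.

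The 6 genes called higher were Fbxl6, Fbxl7, Fbxo7, Fbxo10, Fbxw4 and Fbxw9. The minimum count was met through replicate 1 alone, where they were high, by Fbxl7, Fbxo10, Fbxw4 and Fbxw9. Fbxl7, which acts on Aurora A kinase in human cells, had 26.7 CPM in replicate 1 and 1.76, 4.13, 9.06 and 7.04 CPM in replicates 2 to 5. Fbxo7, a Parkinson's disease gene with a part in mitophagy, had 39.1 CPM there and 17.5, 9.49, 9.06 and 18.4 CPM in the others. Fbxo10 had 18.8 CPM against 2.43 to 7.24 CPM. None of the 6 was among the 20 genes that rank highest by mean. Fbxw4 had 12.6 CPM against 0.145 to 5.71 CPM, and Fbxw9 had 11.7 CPM against 1.39 to 4.29 CPM. The gene called lower was Fbxo16, with 5.18, 13.1, 30.4, 14.7 and 10.6 CPM in replicates 1 to 5. Under TMM scaling Fbxl7, Fbxo10 and Fbxw9 were still called higher, and Fbxo32, Fbxo33 and Fbxo42 joined Fbxo16 as lower.

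Of the 46 F-box genes, replicate 1 lay above all 4 other libraries for 17 and below them for 12. Of all entries with a symbol that met the minimum, 46% lay above and 26.1% below. By subfamily, the log2 difference of replicate 1 from the mean of the others was taken over genes with a mean of 10 CPM or more across the 5 libraries, with 0.1 added to each CPM. Its median was 0.52 over 10 FBXL genes, -0.26 over 26 FBXO genes and 0.10 over 5 FBXW genes, beside 0.03 over 8786 entries with a symbol. With TMM scaling the medians were 0.19, -0.62 and -0.26, beside -0.32 over all entries. The sign for FBXW thus turned with the scaling, and no difference between subfamilies was tested. Of 15 granulosa markers that met the minimum, 11 were called higher in replicate 1, and their part in these differences was not tested.

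**Figure D3:**
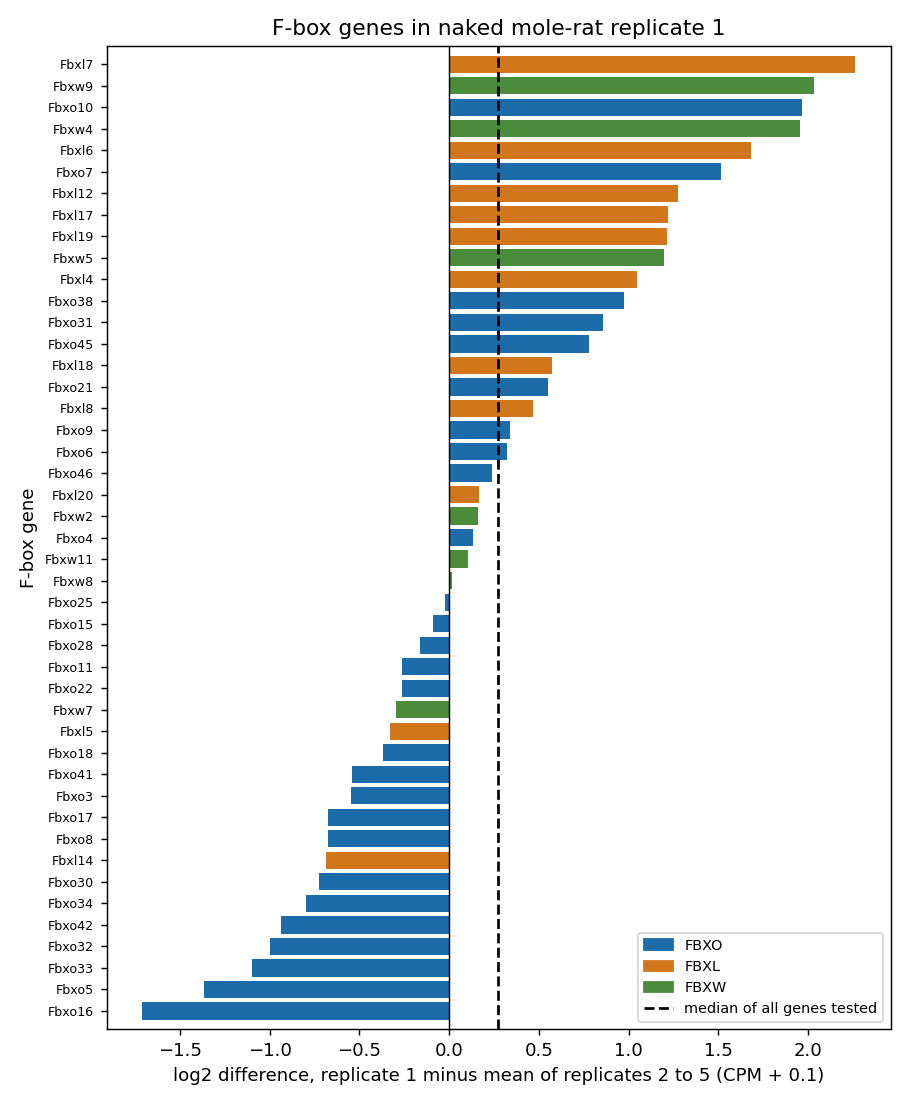
Log2 difference of replicate 1 from the mean of replicates 2 to 5 (horizontal axis, 0.1 added to each CPM) for the F-box genes with enough counts, 1 of the 46 not shown, sorted, with bars coloured by subfamily. The dashed line marks the median, 0.27, of the 10464 entries with a symbol that met the same count minimum. Fbxl7 is at the top with 2.26 and Fbxo16 at the bottom with -1.71.

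Replicates 2 to 5 carry the letters Y or O in their titles, 2 libraries each, with no meaning given in the labels or the text of the paper. With edgeR's quasi-likelihood test and Benjamini-Hochberg adjustment over 15079 entries, 0 of 56 F-box genes passed an adjusted p of 0.05, and the share over all entries was 0%. At an unadjusted p under 0.05 there were 2 F-box genes and 707 entries, and DESeq2 called 0 F-box genes and 59 entries. The 2 genes were Fbxl16 and Fbxo34. Fbxl16 had 2.75 and 2.39 CPM in the Y libraries and 0 counts in the O libraries and in replicate 1. Fbxo34 had 70.6 and 65.8 CPM in the Y libraries and 43.5 and 30.3 CPM in the O libraries, a log2 difference of 0.99 with a standard error of 0.41 and an adjusted p of 0.9998 (edgeR, 0.0789 to 1 over the alternatives). Without replicate 4, Fbxo5 and Fbxo30 passed, with adjusted p of 0.0335 and 0.0116 in edgeR and a range up to 1 over the alternatives, and the O group then rested on replicate 5 alone. These 2 of 58 F-box genes (3.45%) stood beside 494 of 16209 entries (3.05%) called without that library. On simulated data 0 of 67 genes with a 2-fold change were found and 40 of 66 with an 8-fold change. Differences near 2-fold could thus be missed with these libraries. The changed genes were drawn at random over a wide range of levels, so the simulation sets no limit for a single gene such as Fbxo34.

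The guinea pig library was set beside the 5 naked mole-rat libraries to ask which F-box genes lay outside the range of a related rodent. With 1 guinea pig library there was no test and no replicate check. Genes needed at least 100 counts, either in the guinea pig library or in each of the 5 others. Of 47 F-box genes that met this, guinea pig lay above all 5 libraries for 21 (44.7%), below all 5 for 11 (23.4%) and within their range for 15. Over the 10279 matched genes that met it too, 37.2% lay above and 29.1% below. The median log2 difference from the naked mole-rat mean, with 0.1 added to each CPM, was 0.42 over the F-box genes and 0.12 over all genes. Genomes and gene annotations differed between the species, and their part in these differences was not tested. Genes were called at more than 4 times beyond the range, higher for 8.95% of all matched genes and lower for 8.35%. Of 8 stroma markers 2 were called higher in guinea pig, led by Col3a1 at 228 CPM against at most 41.1 CPM. Guinea pig lay within the naked mole-rat range for 3 of the 8. Of 7 endothelial markers 2 were called higher, and of 17 granulosa markers 1 was called higher and 3 lower. Of 14 oocyte markers 2 were called higher and 1 lower. The part of these markers in the contrast was not tested either.

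At more than 4 times beyond the range, 4 F-box genes (8.51%) were higher in guinea pig and 2 (4.26%) lower, against 8.95% and 8.35% of all matched genes. The higher genes were Fbxo27, Fbxo40, Fbxo41 and Fbxl12, and these 4 were called under both other scalings. Leaving out a naked mole-rat library could not undo such a call, so it was no check. The minimum count was met through guinea pig alone, where they were high, by Fbxo27, Fbxo40 and Fbxl12. Fbxo40, known from skeletal muscle where it acts on IRS1, had 125 CPM in guinea pig (95% exact Poisson interval 121 to 130) and 2.15, 7.07, 5.58, 3.74 and 0.812 CPM in naked mole-rat, so it was 17.7 times above the highest library. Fbxo41, an F-box protein of neurons, had 141 CPM (136 to 146) against 10.4, 18.9, 10.9, 6.88 and 23.8 CPM, or 5.91 times the highest. Fbxl12 had 99.3 CPM (95.4 to 103) against 12.8, 2.31, 5.50, 3.25 and 9.84 CPM, or 7.75 times the highest. That all 5 naked mole-rat libraries lay below guinea pig follows from the rule of the call. In guinea pig 10.1% of entries or fewer had a higher count than each of these 3 genes, and 12.3% than Fbxo27.

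Fbxo27 and Fbxo17 lay on opposite sides. Both encode F-box proteins of the group with a sugar-binding domain, which also includes Fbxo2 and Fbxo6. Fbxo27 had 82.0 CPM in guinea pig (78.4 to 85.7), or 7.24 on the log2 scale over the highest naked mole-rat library and 8.53 without replicate 5, and in naked mole-rat 3 counts in replicate 1, 16 counts in replicate 5 and 0 in the other 3 libraries. Fbxo17 had 5.43 CPM in guinea pig (4.54 to 6.43) and 37.1, 56.7, 46.1, 50.5 and 83.5 CPM in naked mole-rat, whose lowest library was 6.83 times the guinea pig level. In the RefSeq list of genes for naked mole-rat (H.glaber_assembly_v1.0) only 3 entries stand between them. How reads were assigned to these related genes was not tested. Of the others in this group, Fbxo6 had 36.1 ± 7.61 CPM in naked mole-rat (SD, n = 5) with no guinea pig entry, and Fbxo2 had at most 3.55 CPM in naked mole-rat.

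The other gene called lower was Fbxo22, which targets the histone demethylase KDM4A in human cells. It had 26.2, 30.2, 36.6, 29.8 and 29.4 CPM in naked mole-rat, among the steadiest of the family, and 5.26 CPM (4.39 to 6.25) in guinea pig. Its lowest naked mole-rat library was 4.98 times the guinea pig level. Fbxw12, with no naked mole-rat entry under that symbol, had 472 counts or 19.3 CPM in guinea pig (17.6 to 21.1).

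**Figure D4:**
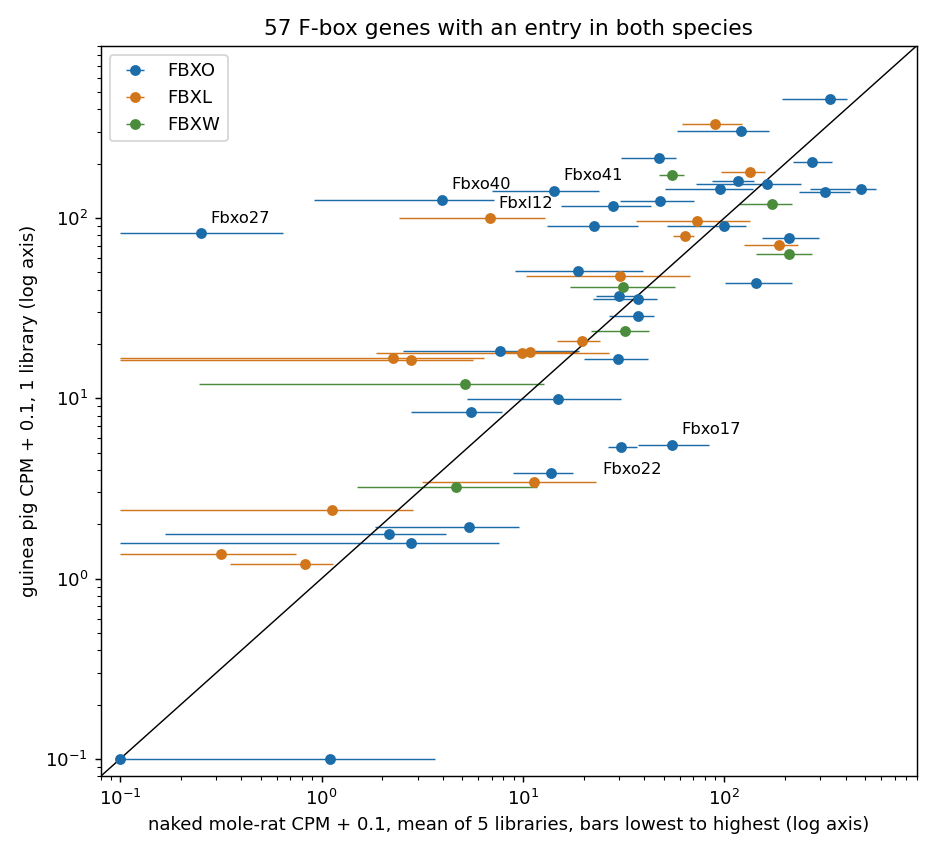
CPM in guinea pig (1 library, vertical axis) against the mean CPM of the 5 naked mole-rat libraries (horizontal axis) for 57 F-box genes, both on log axes with 0.1 added, with bars from the lowest to the highest library and a line of equal CPM. The 4 genes called higher and the 2 called lower in guinea pig are named, with Fbxo27 at 82.0 CPM farthest above the line and Fbxo17 at 5.43 CPM below it.

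The abundant end of the family was also ordered differently. At 100 CPM or more there were 17 of 58 F-box genes in guinea pig (29.3%), against 15.8% of entries with a symbol. Fbxo42 had the highest CPM there, at 457 CPM (448 to 465), against 193 to 408 CPM in naked mole-rat. Fbxl18 followed with 331 CPM (324 to 338), against 122, 86.2, 61.6, 88.6 and 91.6 CPM in replicates 1 to 5. Next came Fbxo30 with 304 CPM (297 to 311), against 79.8, 149, 153, 167 and 58.4 CPM. All 3 lay above every naked mole-rat library. Fbxo46 had 215 CPM (209 to 221) against 54.0, 57.1, 30.6, 41.2 and 54.2 CPM, which was 3.76 times the highest naked mole-rat library and just short of a call. Fbxo18, at 204 CPM (198 to 209.8), completed the 5 highest and lay just under the lowest naked mole-rat library. Fbxl5 with 180.1 CPM (175 to 186) and Fbxw2 with 172 CPM (167 to 177) also lay above all 5, Fbxw2 against 60.2, 57.1, 62.6, 47.3 and 48.4 CPM. Fbxo32, first in naked mole-rat, stood 11th in guinea pig with 144 CPM (139.8 to 149), below all 5 naked mole-rat libraries. Fbxo21 with 139.8 CPM, Fbxo3 with 77.3 CPM, Fbxw8 with 62.9 CPM, Fbxl14 with 70.4 CPM and Fbxo45 with 43.5 CPM also lay below all 5. Of the 10 highest genes in each species, 3 were shared. Fbxo5 lay within the naked mole-rat range, with 154 CPM (149 to 159), and so did Fbxw7, with 23.6 CPM (21.7 to 25.6).

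The partners that F-box proteins need were present throughout. Of 35 listed symbols of the SCF core, its activation by NEDD8 and its regulators, 34 had an entry. The other, Skp1a, is an alias of Skp1. In naked mole-rat 32 reached 1 CPM in every library, and 33 did in guinea pig, where 62% and 73.1% of all entries with a symbol did. The exceptions in naked mole-rat were Cand2, at most 0.370 CPM, and Dcun1d2, with 0 counts in replicate 2. Cul1, the scaffold, had 176, 209, 173, 247 and 237 CPM in naked mole-rat and 82.1 CPM in guinea pig, below all 5. Skp1, the adaptor, had 88.9, 78.1, 96.4, 118 and 77.7 CPM and 352 CPM in guinea pig, above all 5. Rbx1, the RING protein, had 53.8 ± 9.95 CPM (SD, n = 5) and 81.0 CPM in guinea pig. In the 1 guinea pig library the scaffold thus lay below and the adaptor above the naked mole-rat range, and neither passed the 4-fold limit. Of all matched genes compared, 37.2% lay above all 5 and 29.1% below. Of 32 partners compared between the species, 0 were called higher in guinea pig and 2 were called lower, Glmn, an inhibitor of RBX1, and Dcun1d3, and the median log2 difference was -0.16. Of all matched genes compared, 8.95% were called higher and 8.35% lower, with a median log2 difference of 0.12. In replicate 1 the NEDD8 enzymes Ube2m and Uba3 were called higher and Ube2d3 and Cks1b lower, of 33 compared. Of all entries compared, 23% were called higher and 3% lower.

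F-box proteins that go under other symbols were also listed. Of 10 such symbols, 9 had an entry, and the other, Fbh1, is an alias of the family member Fbxo18. Guinea pig lay above all 5 naked mole-rat libraries for 7 of the 7 with enough counts, where 37.2% of all genes did, although 0 of the 7 passed the 4-fold limit. Among them were Btrc, the other beta-TrCP gene, with 107.9 CPM against 27.7 to 67.3 CPM, and Skp2, which targets the CDK inhibitor p27, with 88.4 CPM against 48.9 to 66.4 CPM. Ccnf, or cyclin F, had 213 CPM against 59.1 to 120.5 CPM. The histone demethylases Kdm2a and Kdm2b had 146 and 46.7 CPM against 36.0 to 88.7 and 14.5 to 34.4 CPM. The list was short and its genes were few, and no test was made on it.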

How the data were processed

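Reads of rRNA-depleted directional libraries were trimmed by the authors with Trim Galore and mapped with HISAT2, to HetGla_female_1.0 for naked mole-rat and Cavpor3.0 for guinea pig. The submitters' processing notes name Trim Galore 0.6.1 and HISAT2 2.1.0, and the methods name other versions. The methods name SeqMonk for quantification. The deposited values are raw counts per gene, for which counting options, strand and annotation are not stated in the labels or methods. The coruro counts were not used. CPM was computed on column totals. Symbols were matched between species without case, and date-like, unnamed or repeated symbols were left out of the 15082 matched genes. No pair of libraries was a duplicate, with a chi-square per entry of 48.6 to 489.5 over 10 pairs. The letters Y and O were tested by edgeR 4.0.16 in R 4.3.3 (TMM, filterByExpr, quasi-likelihood test), with DESeq2 1.42.0 as an alternative. The p-values measure only the spread between these females. On simulated data with 200 changed genes among 14228, the test found 0 of 67 with a 2-fold change, 25 of 67 with 4-fold and 40 of 66 with 8-fold, and made 2 false calls.

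Genes described in full were, by rule, the 10 that rank highest by mean CPM, the 5 highest in guinea pig beside these, all genes called in a contrast or at 0 counts throughout a species, and a short list chosen for role. A few others are named for a value and were chosen after it was seen. Members and lists were chosen with earlier results of these data known. Marker lists held oocyte, granulosa, stroma, immune and endothelial genes. The endothelial list summed to 107 to 279 CPM in naked mole-rat and 592 CPM in guinea pig. Of the naked mole-rat genes, 59 of 60 had the same symbol in the RefSeq table. The values of 1 further gene are not reported here.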

Additional observations from a re-analysis of the deposited data

Results flagged for a closer look

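For 59 F-box genes with at least 10 counts in some naked mole-rat library, and for the 4 sums, the gap between the farthest library and its nearest neighbour was taken as a share of the whole range. This share was above 0.71 for 4 genes and for none of the sums, where chance gives about 2.95 of 59. All 4 concerned replicate 1, the library with the highest granulosa markers. Replicate 1 was highest for Fbxl17 (0.774), a receptor that checks the assembly of BTB proteins, with 67.2 CPM against 24.5 to 34.1 CPM. It was also highest for Fbxl4 (0.771), a mitochondrial protein, with 18.4 CPM against 7.53 to 10.02 CPM, and for Fbxw9 (0.719). It was lowest for Fbxo32 (0.727), the gene of highest mean CPM in the family, at 265 CPM against 483 to 565 CPM. The cause was not tested.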

How the results depend on the processing

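The sums stayed within 1 SD and the number of genes at 1 CPM within 1.5 times, under every alternative of scaling and of libraries. The 6 genes called between the species stayed on their side of the limit under both other scalings. Leaving out a library could only keep or raise the number of genes at a minimum CPM. It could likewise only keep a called gene in place or move it farther past the limit, so it was no check there. For Fbxo27 the log2 of guinea pig over the highest naked mole-rat library was 7.24 and became 8.53 without replicate 5. Of 100 alternative values for the counts and sums, 80 stayed so and 20 moved, and the 42 values for single genes kept their side. For single genes, the values with a library left out could not do otherwise. The number of genes at 100 CPM was 17 at 50 CPM and 3 at 200 CPM. In guinea pig, 11 genes were higher and 5 lower at a 2-fold limit (18.5 and 15.1% of all matched genes), and 2 and 0 at an 8-fold limit (4.54 and 4.96%). In replicate 1, TMM scaling gave 3 higher and 4 lower. A 1.5-fold limit gave 9 higher and 5 lower (31.1 and 9.94% of all entries that met the minimum). With a 4-fold limit there were 0 higher and 0 lower (8.39 and 0.0287%). Medians by subfamily over genes chosen by their mean were added after the data were seen.

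For the letters Y and O, the number of entries called was 0 in the edgeR test of the report, 66 with no filter, 173 with replicate 1 as its own group, 59 with DESeq2 and 4 to 494 when a library was left out (494 without replicate 4), and the number of F-box genes was 0 except for 2 without replicate 4. The labels do not say what the numbers after the letters mean. Same-numbered deviations had a correlation of 0.0406 over 15079 entries, and a pairing in part of the genes was not tested. With the replicate block 56 entries and 0 F-box genes were called. Depth limits genes near 0.101 to 0.222 CPM.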
